A study of Mus musculus with 2 samples.

Results

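Prostaglandin synthesis and receptor genes were described in mouse embryonic fibroblasts (MEFs), which are grown from the connective tissue of embryos, with and without the histone H2A deubiquitinase gene Usp16. The members were 10 genes picked by symbol, and all 10 were found among the 51912 gene rows: the phospholipase Pla2g4a, the cyclooxygenases Ptgs1 and Ptgs2, the prostaglandin E synthases Ptges, Ptges2 and Ptges3, the prostacyclin synthase Ptgis, the degrading enzyme Hpgd, and the receptors Ptger2 and Ptger4. The data were 2 RNA-seq libraries of MEFs on a C57BL/6 background, both immortalized with SV40 T antigen, an oncoprotein that disables p53 and the RB family, and both infected with adenovirus carrying Cre recombinase. The KS line carried wild-type Usp16, the UKS line carried floxed Usp16 that Cre deleted, and each line gave 1 library. The labels do not say how many embryos or clones a line came from. Since each group is a single library, no difference has a replicate check, p-values are left out, and the values describe these 2 libraries.

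Prostaglandins are short-lived lipid signals made from arachidonic acid. A phospholipase frees the fatty acid from membranes, a cyclooxygenase turns it into prostaglandin H2, and a terminal synthase turns that into one active product, such as prostaglandin E2 (PGE2) or prostacyclin. Fibroblasts are a classical source of PGE2, in which Ptgs2 and Ptges are the inducible enzymes and Ptgs1, Ptges2 and Ptges3 the mostly constitutive ones. PGE2 acts on neighbouring cells through the EP receptors and is inactivated after uptake by 15-hydroxyprostaglandin dehydrogenase, the product of Hpgd.

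Of the 8 genes with enough reads to compare, Ptges differed most between the lines, and Ptgs2 came next. Both were higher in UKS, Ptges by 11.2-fold and Ptgs2 by 2.32-fold. The remaining synthesis genes stayed within 2-fold, Hpgd was at or below 1 count in both libraries, and the receptors Ptger2 and Ptger4 were low in both, Ptger2 with 5 and 30 counts. The proximal promoters of both higher genes are shown first, beside that of Ptgs1, the cyclooxygenase gene that was not higher, so that the sequences upstream of the inducible and the constitutive isoform can be read together. Each run is the 250 bases before the RefSeq start (RefSeq on GRCm38.p6), with matches to the motifs listed below in capitals. They lie at chr1:150099781-150100030 on the plus strand (Ptgs2), chr2:30903298-30903547 on the minus strand (Ptges) and chr2:36230176-36230425 on the plus strand (Ptgs1). The Ptges start is that of its only coding transcript model, and lies inside the annotated gene because a noncoding model begins further upstream.
Ptgs2: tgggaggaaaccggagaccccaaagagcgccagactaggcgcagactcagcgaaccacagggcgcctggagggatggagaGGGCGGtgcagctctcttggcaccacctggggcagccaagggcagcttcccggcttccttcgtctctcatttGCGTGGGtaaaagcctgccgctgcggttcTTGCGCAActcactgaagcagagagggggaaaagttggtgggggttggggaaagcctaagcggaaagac
Ptges: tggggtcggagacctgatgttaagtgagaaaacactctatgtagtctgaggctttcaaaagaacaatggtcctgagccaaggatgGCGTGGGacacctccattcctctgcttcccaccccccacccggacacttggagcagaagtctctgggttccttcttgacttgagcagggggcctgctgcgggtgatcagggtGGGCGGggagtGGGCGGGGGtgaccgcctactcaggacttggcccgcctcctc
Ptgs1: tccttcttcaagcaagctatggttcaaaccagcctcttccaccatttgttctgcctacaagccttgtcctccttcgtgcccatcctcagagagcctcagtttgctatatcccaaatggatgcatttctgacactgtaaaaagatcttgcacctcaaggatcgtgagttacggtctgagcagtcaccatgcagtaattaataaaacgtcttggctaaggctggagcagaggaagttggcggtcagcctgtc

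The search covered 9 motifs on both strands of the window from 250 bases before to 50 bases after each RefSeq start. The motifs were the TATA box (TATAAA), the CCAAT box (CCAAT), the GC box (GGGCGG), the E-box (CACGTG), the core of the cAMP response element (TGACG), an EGR motif (GCGNGGG), an AP-1 motif (TGANTCA), a C/EBP motif (TTGCGNAA) and the NF-kB consensus. Promoters were found for 9 of the 10 genes, and Ptgis had no entry. Ptgs2 held a GC box starting 170 bases upstream, an EGR match 98 bases upstream and a C/EBP match, TTGCGCAA, 69 bases upstream. The C/EBP motif is held by 0.798% of the 32851 mouse promoter windows searched, the GC box by 35.7% and the EGR motif by 23.2%. Beginning 14 bases after the annotated Ptgs2 start, a cAMP response element core on the opposite strand overlapped an E-box, as in the stretch chr1:150100041-150100055 on the plus strand.
Ptgs2 element: ctaCGTCACGTGgag
The E-box occurs in 7.15% of all windows and the cAMP response element core in 20.8%. Of the other motifs, the TATA box is held by 13.6% of windows and the CCAAT box by 37.4%. The AP-1 motif is held by 7.81% and the NF-kB consensus by 4.51%. None of these 4 was in the Ptgs2 or Ptges window. Sequence outside the windows was not searched, so these motifs may lie there. Ptges held a pair of GC boxes, 53 and 42 bases upstream, the nearer of which overlapped an EGR match 40 bases upstream, and another EGR match 165 bases upstream. Ptgs1 held no match to any of the 9 motifs in its window, which says only that these letters are not there. The GC content of the 250 bases was 61.6% for Ptgs2, 59.6% for Ptges and 48% for Ptgs1, against a median of 52.4% over all promoters. The C/EBP match was in Ptgs2 alone of the 9 genes and was absent from Ptges. Each of the other motifs found in Ptgs2 or Ptges was also in genes that were not higher. Of the 10 windows of the 9 genes, 5 held a GC box and 5 an EGR match, and Ptges3 and Ptger4 held both. An E-box was also in Ptges2 and a cAMP response element core in Ptges3. These matches describe sequence, and binding was not measured.

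Levels are given as estimated read counts per gene and as CPM (counts per library total, adjusted by TMM factors and multiplied to a common size). The comparison between libraries was log2((UKS + 1)/(KS + 1)) with 1 CPM added to each level, taken over the 13015 genes whose mean level reached 1 CPM, and a gene was counted as different past 2-fold on this scale, which is a size and not a test. Folds are ratios of CPM, and brackets hold exact 95% intervals that cover counting error only. The KS library summed to 26561600 counts, each worth 0.0379 CPM, and the UKS library to 23205734 counts, each worth 0.0428 CPM. Usp16 itself was counted 1195 times in KS and 459 times in UKS, where it was thus 2.30-fold lower [2.07 to 2.57] but present. The libraries also differed in sex-linked transcripts, with 1 count of Xist in KS and 6998 in UKS, and 5009 against 9 counts summed over 4 Y-linked genes (Kdm5d, Uty, Ddx3y and Eif2s3y). The parts of Usp16, sex and embryo of origin in any difference below cannot be told apart. Ratios across all genes went with transcript length and GC content (Spearman's correlation -0.4 and 0.52 across genes, which are not independent replicates), so each gene is also given with that trend removed.

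Of the 10 genes 8 passed the filter on low values, and 2 of these 8 were at least 2-fold higher in UKS, Ptges and Ptgs2, where 5.81% of all 13015 genes were. None of the 8 was at least 2-fold lower, where 10.7% of all genes were, and 6 lay between (16.5% of all genes were past 2-fold in either direction). At a size of 1.5-fold the same 2 were higher, Ptger4 was lower and 5 lay between, while 15.4% of all genes were higher, 21.1% lower and 36.5% either. The median log2 ratio of the 8 genes was 0.14 against 0.03 over all genes, with 4 genes above 0 and 4 below. With the trend removed the same 2 genes were past 2-fold, at backgrounds of 5.49% higher, 4.95% lower and 10.4% in either direction, and the median was 0.14 again. These shares over all genes are also the background for the counts in the gene lists below. In bulk RNA fewer cells of a type and less RNA per cell cannot be told apart. The CPM of the 10 genes summed to 813 in KS and 1393 in UKS. Without Ptges the sums were 760 and 807, so Ptges made up most of the gap, and its part of the summed CPM was 6.43% in KS and 42.1% in UKS.

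**Figure D1:**
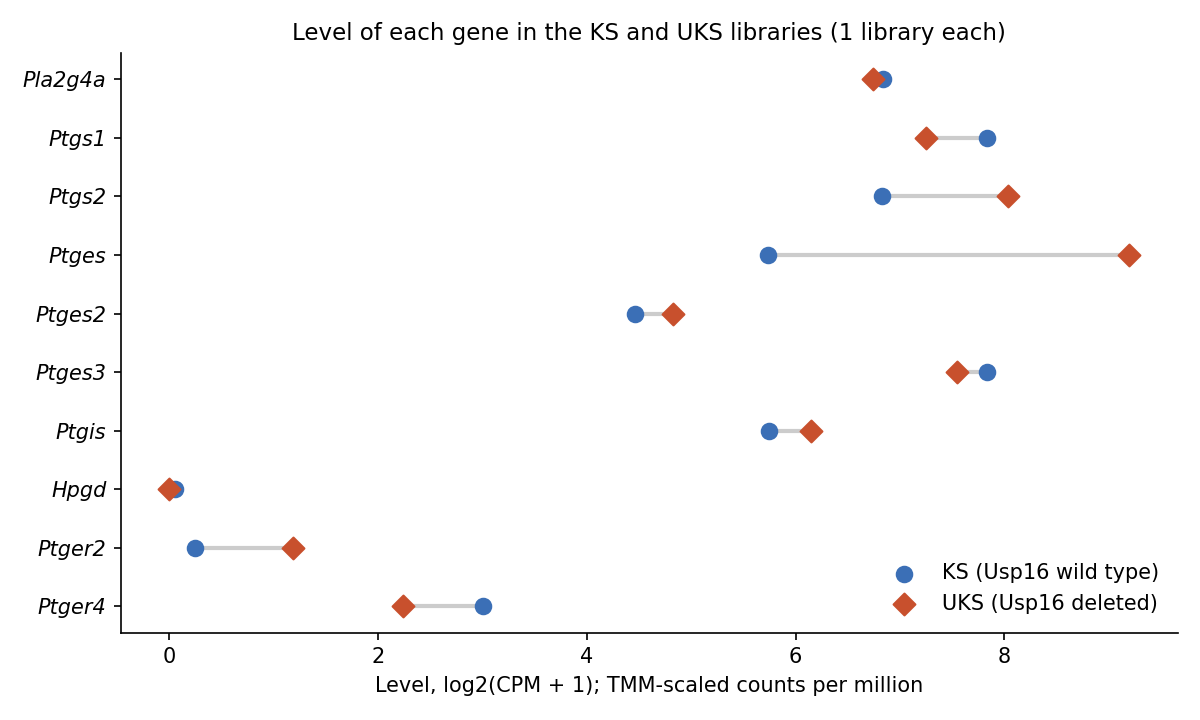
Level of the 10 prostaglandin genes in the KS library (blue circles) and the UKS library (orange diamonds), as log2(CPM + 1) of 1 library each, with grey lines joining the libraries. Ptges runs from 52.3 CPM in KS to 586 CPM in UKS, while Hpgd, Ptger2 and Ptger4 lie at the low end in both.

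The first enzyme of the route, cytosolic phospholipase A2, was nearly level between the libraries. Pla2g4a (ENSMUSG00000056220, GRCm38 chromosome 1, 149829618 to 149961290, minus strand) cuts arachidonic acid from membrane phospholipids. It stood at 2996 counts, or 113 CPM, in KS and at 2472 counts, or 106 CPM, in UKS, 1.07-fold lower [1.02 to 1.13], with a log2 ratio of -0.10. Its transcript is AT-rich (42.1% GC), and with the trend removed the log2 ratio was 0.31, on the other side of 0. Pla2g4a lies 139 kb from Ptgs2, with no other measured protein-coding gene between them, and the intervals of their ratios do not overlap.

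The other phospholipases and their regulators did not include a gene at least 2-fold higher. Of 17 genes, the other phospholipases and the activator Plaa, 6 were measured and all 6 lay within 2-fold (median log2 ratio 0.10, and -0.22 with the trend removed, when 1 was at least 2-fold lower). Plaa, the phospholipase A2 activating protein, had 3292 and 1595 counts, 1.83-fold lower [1.72 to 1.94]. Another cytosolic enzyme, Pla2g4b, had 44 and 15 counts, 2.59-fold lower [1.42 to 5.02] as a ratio of CPM. With 1 CPM added to its low levels its log2 ratio was -0.70, within 2-fold, and -1.06 with the trend removed. The secreted Pla2g7 had 513 and 553 counts (log2 ratio 0.27). The secreted enzymes Pla2g2a, Pla2g2f, Pla2g5, Pla2g10 and Pla2g12b and the cytosolic Pla2g4d, Pla2g4e and Pla2g4f had 0 counts in both libraries, Pla2g2d had 1 and 2, Pla2g2e 3 and 6 and Pla2g4c 16 and 6. Of 4 regulators of the enzyme, Anxa1, the glucocorticoid-induced inhibitor annexin A1, was lower (13166 and 5747 counts, 2.03-fold [1.96 to 2.09], log2 ratio -1.02), and the other 3 lay within 2-fold. With the trend removed Anxa1 stood at -0.85, within 2-fold. Nr3c1, the glucocorticoid receptor, had a log2 ratio of -0.97 that was -0.21 with the trend removed, and its target Tsc22d3 stood at -0.62.

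Genes that supply arachidonate or put it back into membranes lay within 2-fold in 13 of 14 measured cases. The remaining 1 was lower and none was higher (median log2 ratio -0.23), where 10.7% of all genes were lower, and 2 were lower once the trend was removed (median -0.02), where 4.95% of all genes were. The lower member was Lpcat2, an acyltransferase that returns fatty acids to phospholipids (285 and 94 counts, 2.68-fold [2.12 to 3.42]). The fatty acid activating enzymes Acsl3 and Acsl4 stood at -0.99 and -0.96, and Acsl4, which prefers arachidonate, was at -0.05 with the trend removed. Fads1, the desaturase that makes arachidonic acid and the most abundant member, stood at 285 and 182 CPM.

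The cyclooxygenase step showed opposite directions for its isoforms. Ptgs2 (COX-2, the inducible isoform; ENSMUSG00000032487, chromosome 1, 150100031 to 150108227, plus strand) gave 2971 counts (113 CPM) in the KS library against 6087 counts (261 CPM) in the UKS library, 2.32-fold higher [2.22 to 2.42], with a log2 ratio of 1.21. Its transcript is the most AT-rich of the 10 genes (40.0% GC), the fitted trend for its length and composition was -0.75, and with the trend removed its log2 ratio was 1.95. By rank Ptgs2 was number 560 from the top of 13015 genes as counted and number 185 with the trend removed. Ptgs1 (COX-1, the constitutive isoform; ENSMUSG00000047250, chromosome 2, 36230426 to 36252272, plus strand) stood at 5983 counts, or 227 CPM, in KS and at 3540 counts, or 152 CPM, in UKS, 0.669 times the KS level [0.642 to 0.698] and a log2 ratio of -0.58, or -0.72 with the trend removed. KS was the library high in Ptgs1 and UKS the library high in Ptgs2.

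The shift between the isoforms does not depend on how the libraries are scaled. The UKS over KS ratio of Ptgs2 was 3.46 times that of Ptgs1 [3.26 to 3.68], a value formed from the 4 counts alone. Per kb of transcript, the scale on which different genes can be compared, Ptgs1 stood at 79.0 CPM per kb in KS and Ptgs2 at 25.3, and in UKS Ptgs1 stood at 52.9 and Ptgs2 at 58.5. Ptgs2 was thus 24.2% of the summed cyclooxygenase level per kb in KS and 52.5% in UKS, while the sum itself was 104 and 111 CPM per kb. With the mean length of the annotated coding transcripts, which for Ptgs2 takes in a second, short model, the shares of Ptgs2 were 37.2% and 67.2%. In both cases Ptgs1 led in KS and Ptgs2 in UKS.

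**Figure D2:**
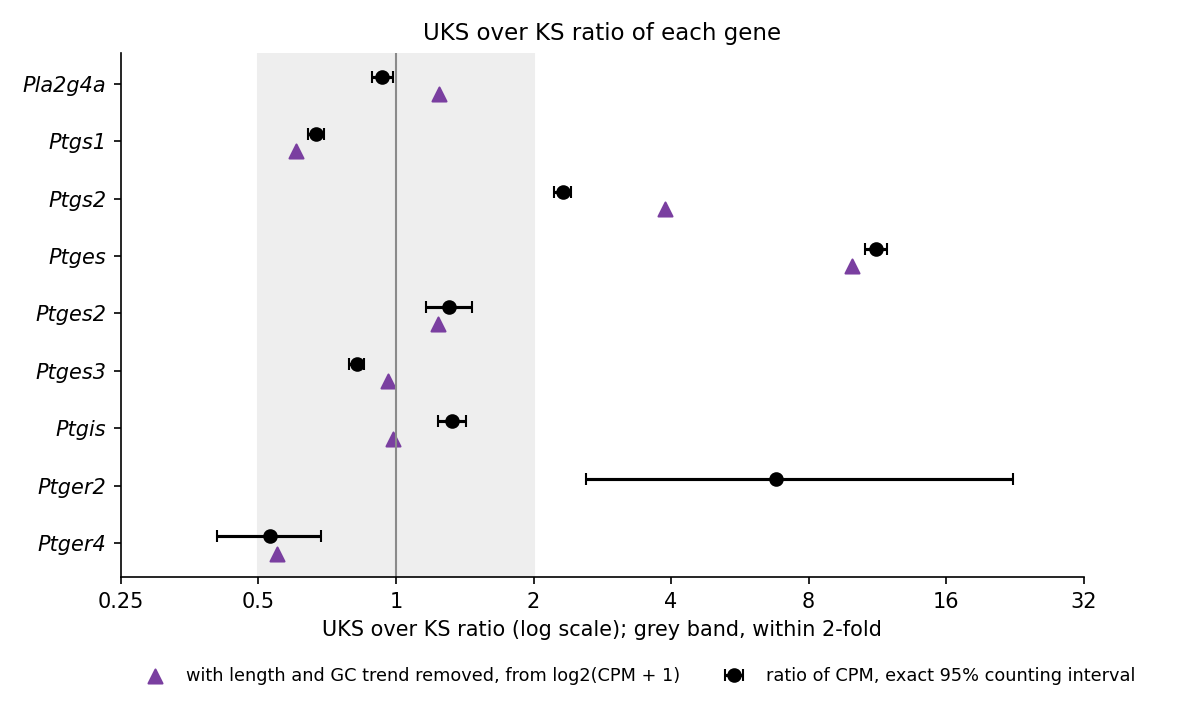
UKS over KS ratio (log axis) of 9 genes, as the ratio of CPM with its exact 95% counting interval (black) and with the trend in transcript length and GC content removed (purple triangles, for the 8 measured genes). Ptges and Ptgs2 lie right of the grey band that marks less than a 2-fold difference, and Ptger2, also right of it, rests on 5 and 30 counts.

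At the terminal synthase step Ptges alone was past 2-fold among the 4 genes for PGE2 and prostacyclin synthesis. Ptges encodes microsomal prostaglandin E synthase-1, the inducible membrane enzyme that works with COX-2 (ENSMUSG00000050737, chromosome 2, 30889471 to 30929863, minus strand). It had 1380 counts (52.3 CPM) in the KS library against 13688 counts (586 CPM) in the UKS library, 11.2-fold higher [10.6 to 11.9], with a log2 ratio of 3.46, or 3.31 with the trend removed. It was number 35 from the top of all 13015 genes by log2 ratio and number 10 among the 4749 genes averaging 50 CPM or more. By level it stood at number 4551 of all genes in KS and at number 203 in UKS. Leaving out predicted gene models, at 50 CPM or more its nearest in log2 ratio were the matrix protease Mmp3 (4.35) and the opioid precursor Penk (3.54) above it and the proteoglycan Dcn (3.32) and the cytokine Lif (3.11) below it. This nearness is in 1 ratio between 2 libraries and says nothing more of the genes.

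**Figure D3:**
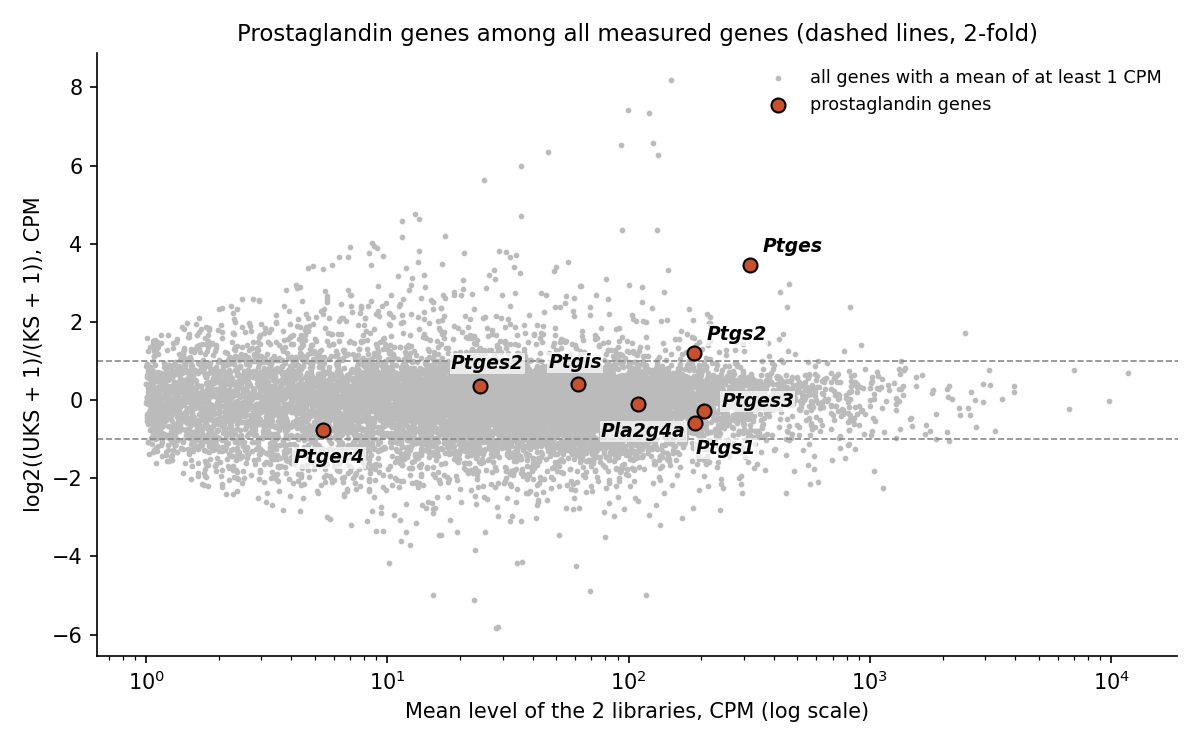
Every gene averaging 1 CPM or more by its mean level (CPM, log axis) and its log2 ratio of UKS over KS (grey points), with the 8 measured prostaglandin genes in orange and dashed lines at 2-fold. Ptges (log2 ratio 3.46) and Ptgs2 (1.21) lie above the upper line, and the other 6 genes lie between the lines.

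The other PGE2 synthases were close to level. Ptges2, the Golgi-associated microsomal prostaglandin E synthase-2 (ENSMUSG00000026820, chromosome 2, 32395896 to 32405772, plus strand), stood at 555 counts, or 21.02 CPM, in KS and at 641 counts, or 27.5 CPM, in UKS, 1.31-fold higher [1.16 to 1.47], with a log2 ratio of 0.37, or 0.30 with the trend removed. Ptges3, the cytosolic synthase that is also the HSP90 co-chaperone p23 (ENSMUSG00000071072, chromosome 10, 128058954 to 128077272, plus strand), gave 5982 counts (227 CPM) in the KS library against 4340 counts (186 CPM) in the UKS library, 1.22-fold lower [1.17 to 1.27], with a log2 ratio of -0.28, or -0.06 with the trend removed. Its deposited values were not whole, and reads may be shared with the processed pseudogene Ptges3-ps, so its level is uncertain. The UKS over KS ratio of Ptges was 8.59 times that of Ptges2 [7.55 to 9.76] and 13.7 times that of Ptges3 [12.8 to 14.6].

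Per kb of transcript the order of the PGE2 synthases differed between the libraries. In KS Ptges3 stood at 113 CPM per kb, Ptges at 14.3 and Ptges2 at 4.22, and in UKS Ptges stood at 161, Ptges3 at 92.9 and Ptges2 at 5.51. The share of Ptges in the sum of the 3 was 10.9% in KS and 62.0% in UKS, or 9.82% and 59.4% with the mean coding transcript length. Ptges2 was the lowest of the 3 in both libraries. The level per kb of Ptges was 0.567 times that of Ptgs2 in KS and 2.75 times in UKS. Of the inducible pair Ptges had the larger UKS over KS ratio, 4.84 times that of Ptgs2 [4.51 to 5.20].

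Prostacyclin synthase did not share the difference of Ptges. Ptgis, which turns the same prostaglandin H2 into the vasodilator prostacyclin (ENSMUSG00000017969, chromosome 2, 167191805 to 167240604, minus strand), stood at 1395 counts, or 52.8 CPM, in KS and at 1637 counts, or 70.1 CPM, in UKS, 1.33-fold higher [1.23 to 1.43]. Its log2 ratio of 0.40 became -0.02 with the trend removed, so its direction rests on that choice. The UKS over KS ratio of Ptges was 8.45 times that of Ptgis [7.71 to 9.26]. Per kb Ptgis was the higher gene in KS (25.1 against 14.3) and Ptges in UKS (161 against 33.3).

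**Figure D4:**
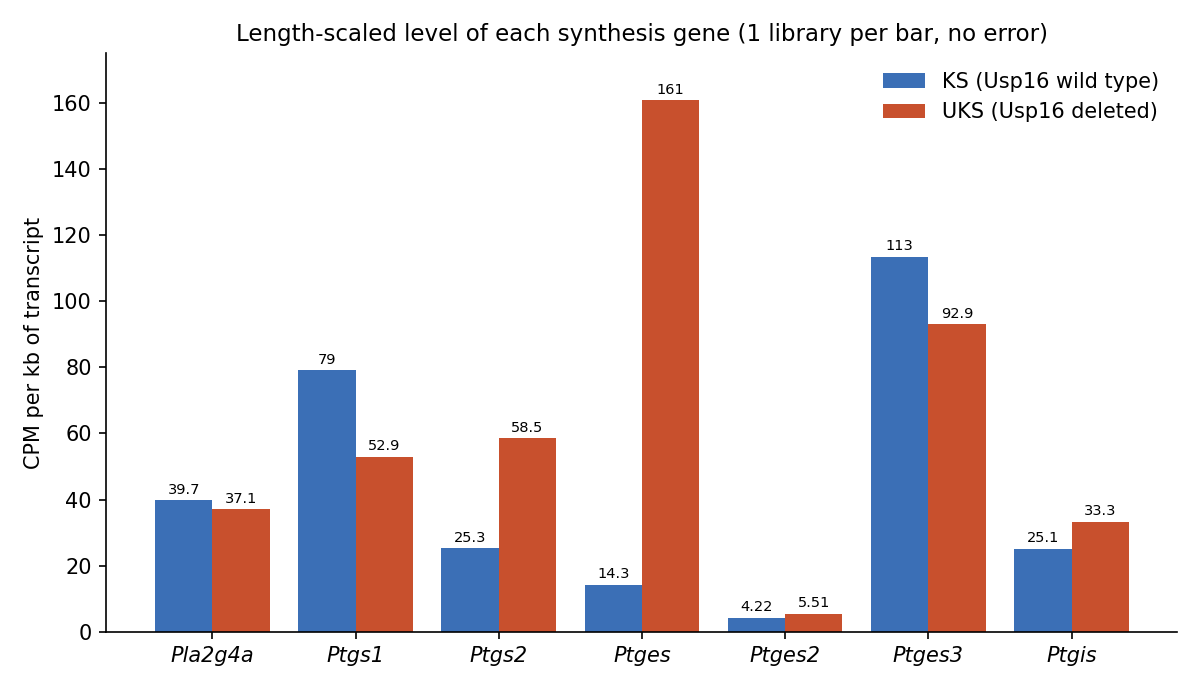
Level of the 7 synthesis genes as CPM per kb of their longest coding transcript, in KS (blue bars) and UKS (orange bars), 1 library per bar. Ptges3 is the tallest bar in KS (113) and Ptges the tallest in UKS (161), and Ptgs2 (58.5) passes Ptgs1 (52.9) in UKS only.

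Synthases of the other prostanoids were mostly low or close to level. Among 6 measured members there were 2 past 2-fold on the higher side and none on the lower (median log2 ratio 0.49), and with the trend removed 1 was higher (median 0.13). The higher ones were Cbr3, a carbonyl reductase (106 and 440 counts, 4.69-fold [3.79 to 5.86]), and Fam213b, the prostamide and prostaglandin F synthase (57 and 131 counts, 2.60-fold [1.89 to 3.61]), which stood at 0.49 with the trend removed. Cbr1, which can turn PGE2 into prostaglandin F2-alpha, had a log2 ratio of 0.61, or 0.22 with the trend removed. The aldose reductase Akr1b3, the most abundant member, stood at 137 and 171 CPM. The prostaglandin D synthases Ptgds (14 and 1 counts) and Hpgds (4 and 0 counts) and the thromboxane synthase Tbxas1 (6 and 1 counts) were below 3 counts in UKS and at most 14 in KS.

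Breakdown by 15-hydroxyprostaglandin dehydrogenase could not be compared. Hpgd (ENSMUSG00000031613, chromosome 8, 56294585 to 56321043, plus strand) had 1 count in KS and 0 in UKS, both under 3 counts, which correspond to 0.114 CPM in KS and 0.128 CPM in UKS, so no ratio is given and a difference was not detectable at this depth. Other genes of prostaglandin transport and breakdown were found on both sides. Among 9 measured members 3 lay at least 2-fold higher, 1 lower and 5 between (median log2 ratio 0.90), where 5.81% of all genes were higher and 10.7% lower. Once the trend was removed 4 were higher and 1 lower (median 0.81), where 5.49% and 4.95% of all genes were. The lower one was Slco2a1, the prostaglandin transporter that takes PGE2 into cells and the most abundant member, with 3814 counts, or 144 CPM, in KS and 927 counts, or 39.7 CPM, in UKS, 3.64-fold lower [3.39 to 3.91] and -1.62 with the trend removed. The higher ones were the carbonyl reductase Cbr2 (87 and 1370 counts, 17.8-fold [14.3 to 22.4]) and the organic anion transporters Slco4a1 (304 and 1851 counts, 6.88-fold [6.09 to 7.80]) and Slco3a1 (423 and 2060 counts, 5.51-fold [4.96 to 6.13]). These 3 stayed past 2-fold with the trend removed, at log2 ratios of 3.26, 2.38 and 2.47. Each has substrates beyond prostaglandins. Abcc4, which exports PGE2, stood at 0.9991 on the log2 scale, just under the size counted, and at 1.21 with the trend removed, and it is named here after its value was seen.

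The receptor genes among the 10 were low in both libraries. Ptger4 encodes EP4, which couples PGE2 to cAMP (ENSMUSG00000039942, chromosome 15, 5206661 to 5244187, minus strand). It had 186 counts (7.05 CPM) in the KS library against 87 counts (3.73 CPM) in the UKS library, 1.89-fold lower [1.46 to 2.47], with a log2 ratio of -0.77, or -0.86 with the trend removed. The gene overlaps Ttc33 on the other strand (361 and 332 counts), and without strand some reads could belong to either. Ptger2 encodes EP2, which acts through the same messenger (ENSMUSG00000037759, chromosome 14, 44988195 to 45003820, plus strand). It stood at 5 counts, or 0.189 CPM, in KS and at 30 counts, or 1.28 CPM, in UKS, a ratio of 6.78 with a wide interval [2.61 to 22.4], and its mean of 0.737 CPM was under the filter. An antisense gene over Ptger2, Gm17173, had 0 and 4 counts. The UKS over KS ratio of Ptger2 was 12.7 times that of Ptger4 [4.67 to 43.4]. Ptger4 remained the higher of the pair per kb, at 2.13 against 0.0514 CPM per kb in KS and 1.13 against 0.349 in UKS.

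Every prostanoid receptor gene was low, with the highest level per kb at 4.38 CPM, that of Ptgir in KS. In KS the order per kb was Ptgir, the prostacyclin receptor (4.38), Ptgfr, the prostaglandin F receptor (2.80), Ptger4 (2.13) and Ptger1, which encodes EP1 (1.39). In UKS Ptgfr (3.10) and Ptger1 (3.03) led, followed by Ptgir (2.05) and Ptger4 (1.13). Of 4 measured genes on the list of other receptors and the receptor regulator Ptgfrn, 1 was at least 2-fold higher and none lower (median log2 ratio 0.16), and with the trend removed 1 was higher and 1 lower (median 0.52). The higher one as counted was Ptger1 (172 and 332 counts, 2.18-fold [1.81 to 2.64], log2 ratio 1.02), which stood at 0.84 with the trend removed and whose level is uncertain without strand. The higher one with the trend removed was a different gene, Ptgfr (490 and 480 counts), at a log2 ratio of 0.14 as counted and 1.04 with the trend removed. Ptgir had 382 and 158 counts, 2.14-fold lower [1.77 to 2.59], a log2 ratio of -0.99 that was -1.23 with the trend removed. Ptgfrn was the most abundant at 171 and 194 CPM. The thromboxane receptor Tbxa2r had 34 and 9 counts, Ptger3 (EP3) 5 and 6, the prostaglandin D2 receptor Ptgdr2 4 and 9, and the other D2 receptor Ptgdr had none.

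The genes that carry EP2 and EP4 signals to cAMP did not share a direction. Among 26 measured members 2 lay at least 2-fold higher, 2 lower and 22 between, the median log2 ratio being -0.01 (with the trend removed 3 higher, 2 lower and 0.07). The adenylyl cyclase Adcy8 was 20.3-fold lower [13.2 to 33.2] with 483 and 21 counts, and the protein kinase A regulatory subunit Prkar2a was 2.496-fold lower [2.33 to 2.68]. The regulatory subunit Prkar1b was 2.85-fold higher [2.62 to 3.11], and the other higher member was the cyclase Adcy2 (236 and 519 counts, log2 ratio 1.22), named after its value was seen. Gnas, the stimulatory G protein and the most abundant member, stood at 985 and 1206 CPM.

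Genes known to act on Ptgs2 and Ptges were compared next. Of 13 transcription factors 2 passed 2-fold on the higher side and none on the lower, with a median log2 ratio of 0.41, where 5.81% of all genes were higher. With the trend removed 1 of 13 was higher (median 0.25), where 5.49% of all genes were, so that count is near the background. The 2 higher as counted were C/EBP family members. Cebpd had 2190 and 4696 counts (2.42-fold [2.30 to 2.55]) and Cebpb 435 and 902 counts (2.35-fold [2.09 to 2.64]). With the trend removed Cebpd stood at 1.19 and Cebpb, a GC-rich transcript, at 0.67. Both overlap a coding gene on the other strand (Spidr and Tmem189), and reads of such pairs cannot be told apart without strand. Atf2 (-0.97) and Hif1a (-0.88, 487 and 264 CPM) were on the lower side and stood at -0.29 and -0.21 with the trend removed. Of 10 RNA-binding proteins that act on Ptgs2 mRNA 1 was at least 2-fold higher and 1 lower (median -0.12), and with the trend removed none was past 2-fold (median 0.38). Zfp36, the decay factor tristetraprolin, had 482 and 882 counts (2.07-fold higher [1.85 to 2.32]). Celf2 had 2917 and 1160 counts (2.22-fold lower [2.08 to 2.38]) and stood at -0.16 with the trend removed. Tia1, a translational silencer, had a log2 ratio of -0.87, or -0.22 with the trend removed. Rbm3 was the most abundant at 594 and 674 CPM.

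Leukotriene and lipoxygenase genes, the other branch from arachidonic acid, had members past 2-fold on both sides. Of 7 measured members 1 was at least 2-fold higher and 1 lower (median log2 ratio 0.76), and with the trend removed 1 was higher and 2 lower (median 0.22). Mgst2, a microsomal glutathione transferase that can make leukotriene C4, was 3.42-fold higher [2.71 to 4.34], and the related Mgst3 was 2.15-fold lower [1.93 to 2.41]. Aloxe3 had 68 and 20 counts, 3.01-fold lower [1.80 to 5.23] as a ratio of CPM. With 1 CPM added its log2 ratio was -0.95, and -1.22 with the trend removed. As counted 5 of the 7 were above 0. Among them Alox5 (15 and 45 counts), Alox12 (12 and 40) and Ltb4r2 (14 and 37) were low in both libraries. They are named after their values were seen, and the median is the value of Ltb4r2. Lta4h, the leukotriene A4 hydrolase and the most abundant member, was level at 95.7 and 98.6 CPM.

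**Figure D5:**
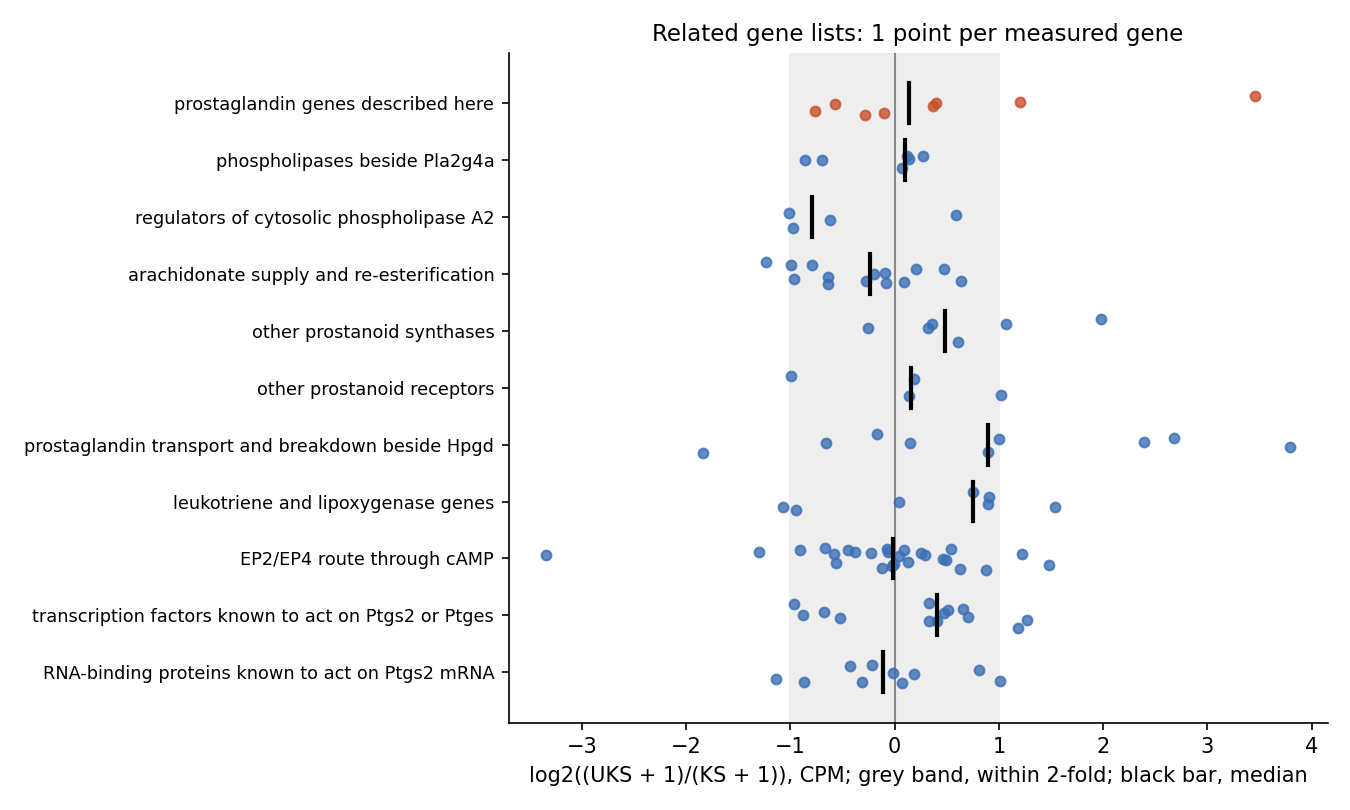
The log2 ratio of UKS over KS for each measured gene of the 10 related lists (blue) and for the 8 measured prostaglandin genes (orange), with a black bar at each median and a grey band within 2-fold. Ptges at 3.46 and, in the transport and breakdown list, Cbr2 at 3.80 lie furthest right, and Adcy8 at -3.35 furthest left.

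The position of the genes was described with the nearest measured protein-coding gene on each side, a choice made after the values were seen. Ptges lies between Prrx2, a mesenchymal homeobox gene 8.22 kb away that was 3.57-fold higher in UKS [3.32 to 3.83], and Tor1b, 23.1 kb away and 1.41-fold higher [1.32 to 1.504]. Ptges2 starts 7.64 kb from Lcn2, the lipocalin 2 gene, which had 4 counts in KS and 4619 in UKS, while Ptges2 itself was 1.31-fold higher. On the other side of Ptges2, Slc25a25 was 1.48-fold higher [1.32 to 1.64]. On the side of Ptgs2 away from Pla2g4a, BC003331 at 253 kb had a log2 ratio of -1.21, or -0.82 with the trend removed. The genes beside Ptges and Ptges2 were higher too but by other sizes, and that beside Ptgs2 was lower. Both neighbours of Ptgis were also higher (Znfx1 1.47-fold and B4galt5 1.88-fold), though Ptgis itself lay within 2-fold. As counted, both neighbours of Ptgs1 and both of Ptger4 were on the lower side. So was Brinp3, 2927 kb from Pla2g4a (log2 ratio -0.98, or -0.69 with the trend removed). With the trend removed Olfr365, 936 kb from Ptgs1, stood at 0.13 and Dab2, 1056 kb from Ptger4, at 0.08, both above 0. The nearer Mrrf (39.8 kb from Ptgs1) and Prkaa1 (24.8 kb from Ptger4) then stood at -0.29 and -0.19. Those of Ptges3 were close to level. Ptgs2os, a noncoding transcript that ends short of the Ptgs2 start on the other strand, had 66 and 112 counts, and Gm43621, over Ptgs1 on the other strand, had 29 and 15 counts.

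Markers of cell types that make or answer prostaglandins were counted in both libraries. The fibroblast genes Fn1 (8995 and 14582 CPM) and Vim (4205 and 2413 CPM) were abundant, and all 12 fibroblast markers were above 3 counts in both libraries. Their summed level was 19229 CPM in KS and 21606 CPM in UKS, with Fn1 the largest part of both sums. By log2 ratio 6 of the 12 were above 0, with a median of -0.08, or -0.21 with the trend removed. Of the 12 the proteoglycan Dcn was at least 2-fold higher (679 and 6209 counts), Thy1 (4424 and 831) and Pdgfra (7982 and 2471) were at least 2-fold lower, and Lum was low in both (25 and 52). With the trend removed 2 were higher, Lum (1.11) being added, and 3 were lower, Vim (-1.14) being added. Of 8 macrophage and other blood cell markers found, Ptprc (2 and 1 counts), Csf1r (7 and 8) and Lyz2 (2 and 4) were near 0, and Adgre1 and Cd3e had no counts. Cd14 (496 and 1455 counts, 3.32-fold higher [2.99 to 3.68]) and Cd68 (154 and 113 counts) made up most of this list, whose sum was 25.04 and 67.7 CPM. The 6 mast cell markers summed to 0.114 and 0.0428 CPM, with 4 at 0 in both libraries, and Ms4a2 (3 and 0 counts) and Kit (0 and 1) were the only ones seen. Of 5 platelet markers, Itga2b had 82 and 90 counts, Ppbp 1 and 23, and Pf4 and Gp9 none. The endothelial list summed to 3.71 and 3.64 CPM, led by Vwf and Kdr, and the epithelial list to 19.8 and 12.9 CPM, mostly Krt19 (423 and 266 counts) and Krt18 (78 and 18). The part of Cd14 and the other markers in the values of Ptges and Ptgs2 was not tested.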

How the data were processed

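The 2 libraries, KS with wild-type and UKS with deleted Usp16, were grouped by their descriptions. RNA came from TRIzol extraction and libraries from a TruSeq kit, per the labels' protocols. The submitters' processing notes list HISAT2, StringTie and GRCm38.p5 but give them no role. Which program counted the reads, on which annotation and whether by strand is not given in the sources used here. Values deposited by the authors are estimated counts (expected counts) per gene, unscaled for depth. Of genes above 0, 23.1% in KS and 21.5% in UKS had values that were not whole, and all were rounded. Both lines share one more engineered change, not reported here.

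TMM factors came from edgeR 4.0.16 and alternative size factors from DESeq2 1.42.0 in R 4.3.3. CPM were taken on TMM-scaled totals, and the compared value was log2((UKS + 1)/(KS + 1)) over genes whose mean reached 1 CPM. No test was made, because each group has 1 library. Intervals are exact: conditional binomial for ratios, and the conditional odds ratio interval for ratios of ratios (scipy 1.17.1). They cover counting error only. Lengths, GC content and coordinates were those of GENCODE M21 (GRCm38), which held 51719 of 51912 identifiers, using each gene's longest coding transcript, which need not be the one expressed. The trend was a robust regression on cubic terms of log2 length and GC content (statsmodels 0.14.6), fitted on genes in no list. A true difference that goes with these properties is taken out with it. Alternatives were library totals, DESeq2 size factors, other pseudocounts, filters and thresholds, and mean transcript length. The steps were tested on simulated data.

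The members, the lists, the motifs and the alternatives were chosen with earlier results of these data known. Named genes were the members, Usp16, up to 3 measured genes per list with the largest absolute log2 ratio, the most abundant of each list, low prostanoid genes, the 2 most abundant markers per cell type, and the 2 genes on either side of Ptges in ratio. Other markers and further exceptions were named after their values were seen.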

Additional observations from a re-analysis of the deposited data

How the results depend on the processing

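Ptges and Ptgs2 were the genes at least 2-fold higher under library totals, DESeq2 size factors, both pseudocounts, both filters and with the trend removed. Their log2 ratios ranged from 3.31 to 3.48 and from 1.18 to 1.95, and no called gene changed direction. At a threshold of 3-fold 1 gene was higher, and at 1.5-fold 1 was lower (21.1% of all genes were), because the size asked for differed. Removing the trend changed the sign of Pla2g4a (0.31) and Ptgis (-0.02), neither of them past 2-fold, and 6 of the 8 ratios by more than counting error. The pseudocount of 5 CPM did so for 1 of 8. With the mean coding transcript length 8 of 16 levels per kb moved by more than counting error. Depth limits Hpgd and Ptger2, whose counts were at most 1 and 30. No paired analysis was possible because each group has 1 library.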
